A study of Mus musculus with 11 samples.

Results

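The Notch pathway was followed in hippocampal neural stem cells (NSCs) of mouse embryos through 10 of its genes, among the 53801 genes in each deposited expression table. They were chosen by symbol, with earlier results of these data known, and each matched 1 gene identifier of the GENCODE annotation. They comprised 3 receptors (Notch1, Notch2 and Notch3), 3 ligands (Dll1, Dll3 and Jag1) and 4 transcription factors of the Hes and Hey family (Hes1, Hes5, Hes6 and Hey1). All are protein-coding, and on GRCm38 Notch3 lies on chromosome 17 (32120820 to 32166852), Notch2 on chromosome 3 (98013527 to 98150361), Hes5 on chromosome 4 (154960923 to 154962371), Hes6 on chromosome 1 (91411483 to 91414038) and Hey1 on chromosome 3 (8663359 to 8667256). A further list of 46 genes, chosen with the same knowledge, held the other parts of the pathway. Shares of called genes in these lists are therefore descriptive. RNA sequencing was performed on 11 libraries of primary NSCs, which were prepared from hippocampi of mid-gestation embryos, grown as neurospheres and then plated on a coated surface. Cells were kept for 7 days with 1 μM 4HBP (4-hydroxybenzophenone in the paper and 4-hydroxybenzoic acid in the sample labels) or with its vehicle, EtOH. Proliferation medium, which held EGF and bFGF, was used for 3 vehicle and 3 4HBP libraries, and differentiation medium, which lacked both growth factors, for 2 vehicle and 3 4HBP libraries. No genetic modification or strain is named in the labels, and each library is bulk RNA of a whole culture. The sources used here do not say whether replicates were separate cultures, so that p-values measure the spread between these libraries, which may be partly technical.

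Notch receptors are single-pass membrane proteins that are activated by a ligand on a neighboring cell. Binding of a Delta or Jagged ligand lets ADAM proteases and then γ-secretase cut the receptor, and the freed intracellular domain enters the nucleus and joins the DNA-binding protein RBPJ to turn on genes such as Hes1, Hes5 and Hey1. The products of these genes repress factors that drive neuronal differentiation and thereby hold neural stem cells in an undifferentiated state, and the Delta ligands are made mainly by cells on the way to becoming neurons. Hes6 differs from its relatives, since it opposes Hes1 and is found in differentiating cells, and Dll3 is a ligand that acts mainly inside the cell that makes it.

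Because RBPJ is the shared nuclear step, the DNA in front of the genes was examined. RefSeq promoter sequences of build GRCm38.p6 were matched for 8 of the 10 genes (all but Hes1 and Hey1), in 10 windows of 250 bases before an annotated start. Some of these starts lie inside the gene as bounded by GENCODE. The windows of Notch1 and Dll3, 1 window of Dll1 and 1 window of Hes6 therefore lie within the gene. The core of the RBPJ site, TGGGAA on either strand, was found in 1 of the 10 windows, that of Hes5, where it occurred at 2 places. It was found in 21.6% of all 32851 promoter windows of this length. The N box CACNAG, a sequence that Hes proteins are known to bind, was present in 4 of the 10 windows on either strand, against 36.7% of all windows, and the E box CANNTG, a sequence that many basic helix-loop-helix factors bind, in 7 of the 10, against 66.2%. The same stretch of bases cannot match both the RBPJ core and either of these motifs. The windows of Hes5, which had the lowest ratio of differentiation to proliferation levels, and of Notch3 and Hes6, which were lower with 4HBP, are printed 5′ to 3′ on the strand of the gene, with RBPJ cores and N boxes in capitals.
Hes5, chr4:154960673-154960922, plus strand: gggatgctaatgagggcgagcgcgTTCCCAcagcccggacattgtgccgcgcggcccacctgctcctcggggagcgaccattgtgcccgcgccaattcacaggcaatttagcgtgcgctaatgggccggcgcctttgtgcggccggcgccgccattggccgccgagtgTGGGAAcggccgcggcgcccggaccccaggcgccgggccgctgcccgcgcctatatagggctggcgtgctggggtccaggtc
Notch3, chr17:32166891-32167140, minus strand: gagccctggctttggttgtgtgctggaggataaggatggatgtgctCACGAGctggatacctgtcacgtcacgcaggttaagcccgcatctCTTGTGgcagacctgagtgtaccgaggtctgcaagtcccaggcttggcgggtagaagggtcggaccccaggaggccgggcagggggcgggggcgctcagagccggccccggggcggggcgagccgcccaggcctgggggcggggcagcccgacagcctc
Hes6, chr1:91414039-91414288, minus strand: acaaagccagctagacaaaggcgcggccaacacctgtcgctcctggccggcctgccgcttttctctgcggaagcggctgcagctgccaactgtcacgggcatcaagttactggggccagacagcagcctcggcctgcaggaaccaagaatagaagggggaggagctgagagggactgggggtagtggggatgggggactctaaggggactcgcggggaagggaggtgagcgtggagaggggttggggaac
In the Hes5 window the RBPJ cores began 226 and 82 bases before the start of the gene and lay on opposite strands. The Notch3 window held 2 N boxes and no RBPJ core, and the Hes6 window printed here held neither, while the other Hes6 window, at chr1:91413223-91413472, held 1 N box. These are matches of letters in a short window and do not show where a factor was bound.

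The libraries held between 20822921 and 23438463 expected counts, and the 3 counts taken as the smallest detectable amount corresponded to 0.128 to 0.144 CPM (counts scaled to the library total). Values per library are given as normalised CPM (scaled by TMM over the 11 libraries), and comparisons as log2 fold changes with the standard error (SE) from edgeR's quasi-likelihood test, with p-values adjusted by Benjamini-Hochberg over all genes tested. A gene was called when the adjusted p was under 0.05. In proliferation medium, 4HBP replicate 3 stood apart from its fellow 4HBP libraries (a chi-square statistic averaged over genes of 25.6 and 23.0, against 5.62 between the other two), and results that rest on 1 library are given without it. The stem cell markers Nes and Sox2 were detected in every library. The endothelial markers Cdh5 and Cldn5 had 0 counts in all 11 libraries, and the microglial markers Aif1 and Tmem119 in 10 of 11. Other markers of these lists were detected. Flt1 of the endothelial list was at 9.83 to 19.4 normalised CPM in the proliferation libraries. P2ry12 of the microglial list was at 0.573 to 3.41 over all 11 libraries.

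The levels of the 10 genes were first compared with each other in TPM, which is per transcript length, within a group. The TPM of a gene sums all its annotated transcripts. In vehicle cultures in proliferation medium, Hey1 had the highest level at 75.8 ± 4.0 TPM (SD, n = 3), followed by Notch1 at 65.5 ± 3.85. The abundance-weighted length of Hey1 averaged 1362 bases in the proliferation libraries, against 2423 for its protein-coding transcript. Its rank there is thus that of all its transcripts, short ones annotated as retained introns included, and need not hold for the coding one. Hes5 (34.8 ± 4.99), Hes6 (29.9 ± 4.74), Notch3 (26.5 ± 4.76) and Dll1 (24.0 ± 4.71) formed a second tier in which each overlapped its neighbor. Dll3 (11.6 ± 3.76), Hes1 (7.71 ± 1.8), Notch2 (5.82 ± 0.7) and Jag1 (4.08 ± 1.18) were lowest, again with overlapping neighbors. In vehicle cultures in differentiation medium the order was Hey1 (115.0 ± 3.79 TPM, n = 2), Hes6 (50.2 ± 0.0566), Notch1 (41.9 ± 0.94), Notch2 (40.9 ± 0.226), Dll1 (16.5 ± 1.11), Notch3 (15.3 ± 1.19), Hes1 (7.88 ± 0.304), Dll3 (7.0 ± 0.58), Hes5 (2.96 ± 0.516) and Jag1 (2.27 ± 0.141). Only Dll1 and Notch3 overlapped as neighbors there, with 2 libraries behind each range. Hes1, the best known effector of the pathway, was thus among the 4 lowest of the 10 genes in both vehicle groups. With 4HBP in proliferation medium the order was Hey1 (117.0 ± 19.2 TPM, n = 3), Notch1 (58.4 ± 7.1), Hes6 (21 ± 2.68), Hes5 (20.6 ± 10.5), Notch3 (16.9 ± 0.705), Dll1 (16.4 ± 0.566), Dll3 (8.65 ± 1.07), Hes1 (6.87 ± 2.06), Notch2 (6.10 ± 1.64) and Jag1 (5.72 ± 0.643), with overlapping neighbors from Hes6 to Dll1 and from Dll3 to Jag1. With 4HBP in differentiation medium it ran from Hey1 (109.0 ± 1.89 TPM, n = 3) over Hes6 (55.1 ± 3.92), Notch1 (46.3 ± 5.06) and Notch2 (38.7 ± 0.761) to Dll1 (17.4 ± 0.955), Notch3 (15.5 ± 0.435), Dll3 (7.63 ± 0.423), Hes1 (4.94 ± 0.673), Hes5 (4.26 ± 1.36) and Jag1 (2.58 ± 0.0954). There, Hes6 overlapped Notch1 and Hes1 overlapped Hes5. TPM was not compared between media, because the short mitochondrial gene mt-Atp8 took a changing part of the total (44806 to 47874 TPM in differentiation and 129694 to 159457 in proliferation libraries).

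**Figure D1:**
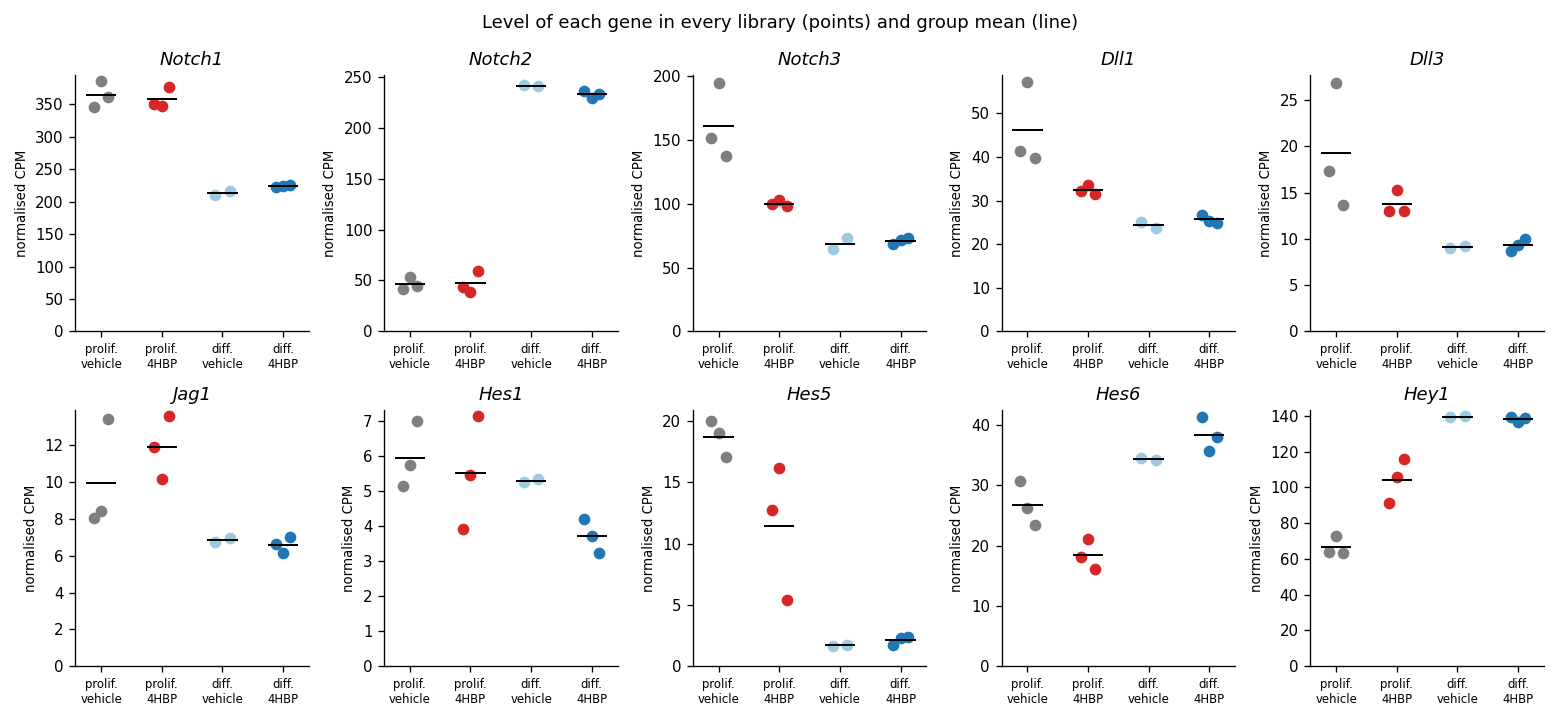
Normalised CPM of each of the 10 genes (vertical axes, each starting at 0) in every library of the 4 groups, with points for libraries and a line for the group mean. In proliferation medium the 4HBP libraries of Notch3 lie below and those of Hey1 above all vehicle libraries, and Notch2 and Hes5 differ most between media.

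The first comparison asked how 4HBP changed these genes in proliferation medium. Of the 10 genes, 1 was higher (Hey1) and 2 were lower (Notch3 and Hes6), that is 3 of 10 called, whereas 7.43% of the 14449 genes tested were called (3.74% higher and 3.69% lower). The median log2 fold change was -0.30 over the 10 genes and 0.00 over all genes tested. Every 4HBP library lay on 1 side of every vehicle library for 5 of the 10 genes (Notch3, Dll1, Hes5, Hes6 and Hey1), against 31.2% of all genes. Without vehicle replicate 1 none of the 10 was called (adjusted p = 0.06 for Notch3 and 0.0675 for Hey1, edgeR), where 0.729% of all genes were called, and limma on log2(CPM + 1) with adjusted p called none of the 10 and 0.0755% of all genes.

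Among the receptors, Notch3 was the one that changed. Its normalised CPM was 152, 195 and 138 in the vehicle libraries and 100, 103 and 98.0 in the 4HBP libraries. The 4HBP values were close together and all lay below the lowest vehicle value. The log2 fold change was -0.69 (SE 0.118, adjusted p = 0.0136, edgeR), equal to a level of 0.621 of vehicle, and was between -0.79 and -0.53 when each library was left out. Notch1, the main receptor of neural stem cells, had 346, 387 and 362 normalised CPM with vehicle and 350.3, 348 and 376 with 4HBP. These ranges overlapped, and the log2 fold change of -0.03 had a 95% confidence interval from -0.20 to 0.15. Notch2 was at 41.8, 53.5 and 44.3 normalised CPM with vehicle and at 43.7, 39.1 and 59.0 with 4HBP. Its log2 fold change of 0.02 (95% confidence interval -0.32 to 0.37) leaves room for a moderate change in either direction.

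The Delta ligands were lower in the 4HBP libraries without passing the test. Dll1 had 41.4, 57.2 and 39.8 normalised CPM with vehicle and 32.3, 33.6 and 31.5 with 4HBP, so that the groups did not overlap. Its log2 fold change was -0.51 (SE 0.133, adjusted p = 0.0515, edgeR), and it was called by DESeq2 (adjusted p = 0.00936), without the filter on low counts (0.0116), with all 11 libraries in 1 edgeR fit (0.00892) and without vehicle replicate 3 (0.042). That last fit was the only 1 of the 6 without a library that called Dll1. In these 6 fits its log2 fold change was between -0.60 and -0.32, with adjusted p up to 0.131 (edgeR). Dll3 had 17.4, 26.8 and 13.6 normalised CPM with vehicle and 12.97, 15.3 and 13.1 with 4HBP. The groups overlapped, and the log2 fold change was -0.48 (95% confidence interval -0.98 to 0.01), moving to -0.17 without vehicle replicate 2. Jag1, a ligand of the Jagged type, had 8.05, 8.43 and 13.4 normalised CPM with vehicle and 11.9, 10.2 and 13.6 with 4HBP, with a log2 fold change of 0.26 (95% confidence interval -0.21 to 0.72).

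The 4 genes of the Hes and Hey family did not move together. Hey1, a repressor downstream of Notch, had 64.1, 72.9 and 63.1 normalised CPM with vehicle and 91.1, 106 and 116 with 4HBP. All 4HBP values were above all vehicle values, and the log2 fold change was 0.65 (SE 0.102, adjusted p = 0.0104, edgeR), which is 1.56 times the vehicle level. This rise is in counts over all Hey1 transcripts, including those annotated as retained introns. Hes6 had 30.6, 26.2 and 23.4 normalised CPM with vehicle and 18.1, 21.1 and 16.1 with 4HBP. It was lower by a log2 fold change of -0.54 (SE 0.135, adjusted p = 0.0452, edgeR). The Hes6 call depended on single libraries, since it was kept in 1 of the 6 fits that left out a library, the one without vehicle replicate 3, with adjusted p between 0.0434 and 0.164.

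Hes5 and Hes1 are the classical targets of RBPJ in neural stem cells. Hes5, whose promoter window with 2 RBPJ cores is printed above, had 20.0, 19.0 and 17.1 normalised CPM with vehicle and 12.7, 16.1 and 5.38 with 4HBP. The groups did not overlap, yet 4HBP replicate 3 was far below the other libraries, and the log2 fold change of -0.71 (SE 0.307, adjusted p = 0.189, edgeR) was not called. It lay between -1.04 and -0.37 when each library was left out. Hes1 had 5.12, 5.72 and 6.99 normalised CPM with vehicle and 3.92, 5.46 and 7.12 with 4HBP, with overlapping groups and a log2 fold change of -0.11 (95% confidence interval -0.62 to 0.41).

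**Figure D2:**
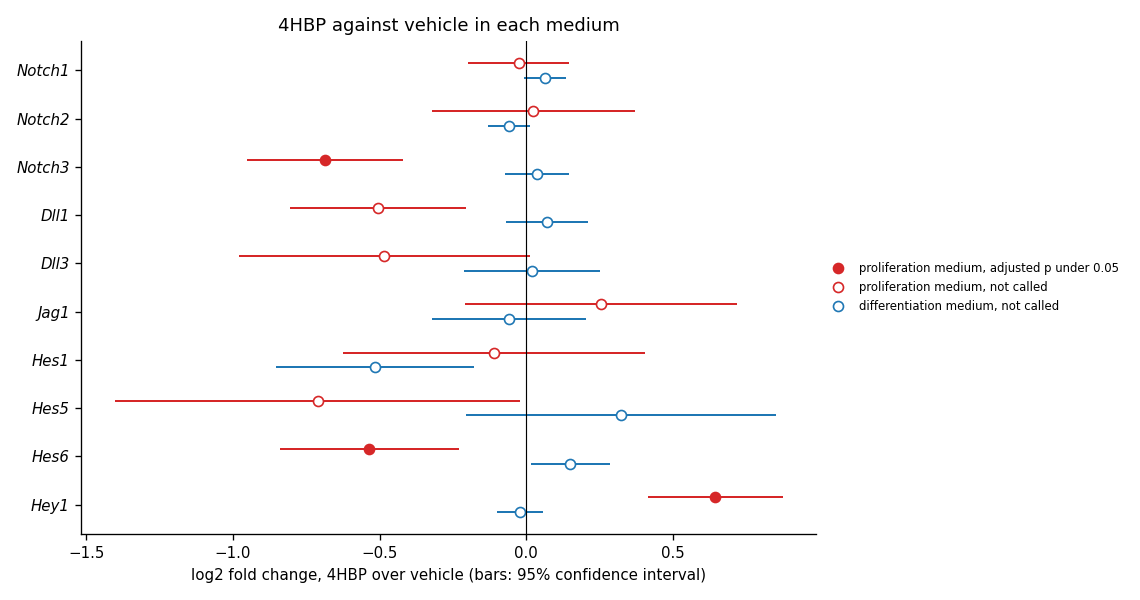
Log2 fold change of 4HBP over vehicle for the 10 genes in proliferation medium (red) and differentiation medium (blue), with bars for the 95% confidence interval and filled points for genes with adjusted p under 0.05. Filled points are Notch3, Hes6 and Hey1 in proliferation medium, and no gene in differentiation medium.

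Markers of cell types moved in the same libraries, and their part in the results for the Notch genes was not tested. In bulk RNA, fewer cells of a type and less RNA per cell cannot be told apart. Among neuronal progenitor markers, Neurog1 was at 0 counts in all 11 libraries, Neurod4 in 6, Eomes in 4 and Neurog2 in 1. Insm1 and Neurod1 of the same list were above 0 in every library, at 5.57 to 9.42 and 0.636 to 1.59 normalised CPM in proliferation medium, and neither was called. All 7 astrocyte markers had a log2 fold change below 0, and 3 were called lower, among them Gfap (-0.68, adjusted p = 0.00987) and Aqp4 (-0.66, adjusted p = 0.0169). The summed level of the 7 was 7840 to 8720 CPM with vehicle and 6190 to 6670 with 4HBP. All 6 cycling markers had a log2 fold change below 0 too, but none was called, with Mki67 at -0.53 (adjusted p = 0.184). Their summed level was 823 to 973 CPM with vehicle and 428 to 800 with 4HBP. None of the 7 oligodendrocyte lineage markers was called, with a median log2 fold change of -0.31. Their sum was 3360 to 4000 CPM with vehicle and 2120 to 3550 with 4HBP. None of the 7 stem cell markers was called (Nes 0.31 with adjusted p = 0.398, Sox2 -0.05 with adjusted p = 0.696), and none of the 7 neuronal markers was called (Tubb3 0.15 with adjusted p = 0.637, Dcx 0.01 with adjusted p = 0.965), all by edgeR.

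In the rest of the pathway, 40 of the 46 listed genes were tested in proliferation medium, of which 1 was higher and 2 were lower, that is 7.5% called, close to the 7.43% of all genes. Dner, a Delta-like membrane protein of neurons and glia, fell from 44.5, 51.4 and 42.0 to 29.0, 31.4 and 33.4 normalised CPM (log2 fold change -0.56, SE 0.099, adjusted p = 0.0147, edgeR). Neurl1b, a ubiquitin ligase that acts on Notch ligands, fell from 7.17, 10.9 and 9.02 to 4.50, 5.37 and 4.50 normalised CPM (-0.91, SE 0.183, adjusted p = 0.0227, edgeR). Mib2, another ubiquitin ligase of the ligand-sending cell, rose from 34.6, 39.0 and 41.0 to 50.5, 51.1 and 55.0 normalised CPM (0.45, SE 0.086, adjusted p = 0.0188, edgeR). None of the 9 genes for receptor proteolysis, the 5 for glycosylation, the 8 receptor modulators or the 8 of the nuclear complex was called (the 2 tested of the other targets neither), and the median log2 fold change of the 40 genes was 0.02. The count of 3 was 0 without 4HBP replicate 2, without vehicle replicate 1 or without vehicle replicate 2 (1.97%, 0.729% and 0.933% of all genes called). It was 7 with all 11 libraries in 1 fit, where 16.8% of all genes were called.

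In differentiation medium, none of the 10 genes was called with 4HBP by edgeR, by DESeq2 or by limma, whereas 2.56% of the 15484 genes tested were called by edgeR (1.26% higher and 1.3% lower). At an unadjusted p under 0.05 there were 2, Hes1 and Hes6, against 15.9% of all genes. Likewise, 5 of the 10 genes had separate ranges in the 2 groups (Notch1, Notch2, Hes1, Hes6 and Hey1, the last only beyond the digits given here), against 32.9% of all genes, with 3 and 2 libraries. The median log2 fold change was 0.03 over the 10 genes and 0.00 over all genes tested.

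Of the genes called in proliferation medium, Notch3 and Hey1 were close to their vehicle level here, and Hes6 was slightly higher without being called. Notch3 had 64.8 and 72.9 normalised CPM with vehicle and 68.2, 71.5 and 73.3 with 4HBP, with a log2 fold change of 0.04 (95% confidence interval -0.07 to 0.15). Hey1 had 139.3 and 139.7 normalised CPM with vehicle and 139.3, 136.4 and 139.1 with 4HBP, with a log2 fold change of -0.02 (95% confidence interval -0.10 to 0.06). Hes6 had 34.5 and 34.2 normalised CPM with vehicle and 41.3, 35.6 and 38.0 with 4HBP, with a log2 fold change of 0.15 (95% confidence interval 0.01 to 0.29, adjusted p = 0.255, edgeR). Dll1, at 25.02 and 23.7 with vehicle and 26.7, 25.4 and 24.97 with 4HBP, had a log2 fold change of 0.07 (95% confidence interval -0.07 to 0.21).

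Hes1 had the largest difference of the 10 genes in this medium. It had 5.24 and 5.33 normalised CPM with vehicle and 4.18, 3.72 and 3.22 with 4HBP, so that the groups did not overlap (log2 fold change -0.52, SE 0.16, adjusted p = 0.115, edgeR). Hes5 was low in both groups, at 1.63 and 1.75 normalised CPM with vehicle and 1.74, 2.28 and 2.37 with 4HBP (0.32, 95% confidence interval -0.20 to 0.85). Notch1 (0.07, -0.01 to 0.14), Notch2 (-0.06, -0.13 to 0.01), Dll3 (0.02, -0.21 to 0.25) and Jag1 (-0.06, -0.32 to 0.20) were not called, given here as the log2 fold change and its 95% confidence limits.

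Of the rest of the pathway, 43 of 46 genes were tested in differentiation medium, and 2 were higher and 2 were lower (9.3% called, against 2.56% of all genes). Nrarp, a Notch target that dampens the signal, rose from 25.6 and 25.3 to 29.2, 30.7 and 32.4 normalised CPM (log2 fold change 0.27, SE 0.064, adjusted p = 0.0392, edgeR). Dtx4, a Deltex-type modulator of the receptor, rose from 168 and 175 to 189, 198 and 198 normalised CPM (0.18, SE 0.038, adjusted p = 0.0206, edgeR). Dlk1, a Delta-like protein, fell from 6.92 and 6.17 to 3.92, 4.52 and 4.69 normalised CPM (-0.59, SE 0.144, adjusted p = 0.0412, edgeR), and Spen, a corepressor partner of RBPJ, fell from 166 and 172 to 152, 154 and 151 (-0.16, SE 0.037, adjusted p = 0.0315, edgeR). The count of 4 was 0 without 4HBP replicate 2 or 3, in the fit of all 11 libraries and by limma, and 2 by DESeq2. Fits without a vehicle library leave a lone one in that group and are not counted here. Of all genes, 1.62% and 1.51% were called without those 4HBP replicates, 0% in the joint fit and by limma, and 1.78% by DESeq2. Among the markers in this medium, the astrocyte sum was 9360 to 9380 CPM with vehicle and 9230 to 9460 with 4HBP. The cycling sum was 153 to 174 CPM with vehicle and 181 to 206 with 4HBP, with Ccnb1 called (0.49, adjusted p = 0.0476, edgeR), and the stem cell marker Fabp7 was called too (0.23, adjusted p = 0.017, edgeR).

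The difference of the 4HBP effect between media was then tested itself, as the log2 fold change in differentiation minus that in proliferation medium. It was called for 3 of the 10 genes, 2 with a higher value in differentiation medium (Notch3 and Hes6) and 1 with a lower one (Hey1), against 4.49% of the 15920 genes tested (2.48% higher and 2.01% lower). The difference was 0.73 for Notch3 (SE 0.156, adjusted p = 0.0207, edgeR), 0.70 for Hes6 (SE 0.165, adjusted p = 0.0332, edgeR) and -0.66 for Hey1 (SE 0.121, adjusted p = 0.011, edgeR). For Dll1 it was 0.58 (95% confidence interval 0.21 to 0.95, adjusted p = 0.0787, edgeR) and for Hes5 1.04 (95% confidence interval -0.07 to 2.15, adjusted p = 0.281, edgeR). These values share libraries with the comparisons within each medium. The count of 3 was 0 without either vehicle library of the differentiation medium (0.753% and 0.709% of all genes called) and 1 without 4HBP replicate 2 or 3 of that medium. Without those 4HBP replicates, 1.93% and 1.97% of all genes were called. Among astrocyte markers, the difference was 0.68 for Gfap (adjusted p = 0.0192) and 0.74 for Aqp4 (adjusted p = 0.0138), both by edgeR.

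Larger differences were found between the media. In vehicle cultures 9 of the 10 genes were called, 3 higher in differentiation medium (Notch2, Hey1 and Hes6) and 6 lower, against 61.4% of all 15920 genes tested (30.8% higher and 30.6% lower). With 4HBP all 10 were called, 3 higher and 7 lower, against 67.2% (33.3% higher and 33.8% lower). The ranges of the media did not overlap for 9 of the 10 genes in vehicle cultures and for 9 of the 10 with 4HBP, against 76.4% and 71.5% of all genes, and Hes1 was the exception in both. With such a background the counts are not read as a result about these genes, and sizes and directions are described instead. The median log2 fold change of the 10 genes was -0.66 with vehicle and -0.53 with 4HBP (0.03 and 0.01 over all genes tested).

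The receptors diverged between the media. Notch2 rose from 41.8, 53.5 and 44.3 to 242 and 241 normalised CPM in vehicle cultures, a log2 fold change of 2.37 (SE 0.136, adjusted p = 1.52e-08, edgeR) or 5.18 times the level in proliferation medium. With 4HBP it rose from 43.7, 39.1 and 59.0 to 236, 229.6 and 233 normalised CPM (2.30, SE 0.127, adjusted p = 6.56e-09, edgeR). Notch1 fell from 346, 387 and 362 to 210.2 and 216 normalised CPM in vehicle cultures (-0.78, SE 0.064, adjusted p = 3.83e-07, edgeR), and Notch3 fell from 152, 195 and 138 to 64.8 and 72.9 (-1.23, SE 0.119, adjusted p = 1.61e-06, edgeR). With 4HBP, under which Notch3 was already lower in proliferation medium, its log2 fold change between media was -0.50 (SE 0.104, adjusted p = 0.000852, edgeR).

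Per transcript length, Notch1 was 11.4 ± 1.67 times as abundant as Notch2 in vehicle cultures in proliferation medium (SD, n = 3), and 1.03 ± 0.0173 times in differentiation medium (n = 2). With 4HBP the ratios were 9.82 ± 1.31 and 1.19 ± 0.107 (n = 3 each). Such ratios of TPM are taken within a library, so the normalization of the library cancels. The share of Notch2 in the summed TPM of the 3 receptors was between 5.59 and 8.67% in the 6 proliferation libraries and between 37.1 and 41.8% in the 5 differentiation libraries, with no overlap. With treatments pooled, this gave p = 0.00433 in a two-sided exact permutation test, the smallest that 6 against 5 libraries allow, and 0.00577 after Benjamini-Hochberg adjustment over 8 ratios and shares. Within proliferation medium the share of Notch3 was 27.1 ± 4.19% with vehicle and 20.9 ± 1.81% with 4HBP (n = 3 each), where 3 against 3 libraries cannot go below an exact p of 0.1, the value obtained.

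**Figure D3:**
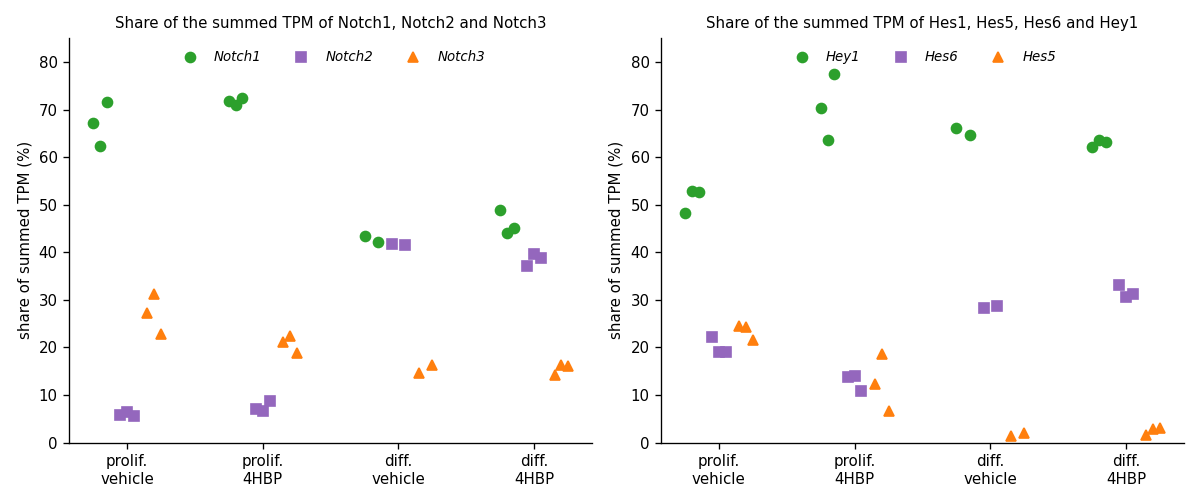
Share of each receptor in the summed TPM of Notch1, Notch2 and Notch3 (left) and of Hey1, Hes6 and Hes5 in the summed TPM of Hes1, Hes5, Hes6 and Hey1 (right), in percent, with 1 point for each library of the 4 groups. In differentiation medium Notch2 is at 37.1 to 41.8%, close below Notch1, and Hes5 is at most 3.08% of the effectors there.

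Dll1, Dll3 and Jag1 were lower in differentiation medium. In vehicle cultures, Dll1 fell from between 39.8 and 57.2 to 25.02 and 23.7 normalised CPM (log2 fold change -0.92, SE 0.129, adjusted p = 4.36e-05, edgeR), and Dll3 fell from between 13.6 and 26.8 to 9.03 and 9.25 (-1.08, SE 0.221, adjusted p = 0.000933, edgeR). Jag1 fell from between 8.05 and 13.4 to 6.74 and 6.96 (-0.54, SE 0.206, adjusted p = 0.0361, edgeR), and this call was lost without vehicle replicate 3 of the proliferation medium (-0.27, adjusted p = 0.157) and without either vehicle library of the differentiation medium. Divided by its estimated transcript length, Jag1 in differentiation medium was at 0.423 of its level in proliferation medium, against 0.687 in counts. With 4HBP the log2 fold changes were -0.34 for Dll1 (adjusted p = 0.0192), -0.56 for Dll3 (adjusted p = 0.0217) and -0.85 for Jag1 (adjusted p = 0.00106, all edgeR). The calls of Dll1 and Dll3 with 4HBP were each lost in 3 of the 6 fits that left out a library, with adjusted p up to 0.0695 and 0.0842.

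The effectors went in opposite directions. Hes5 fell from 20.0, 19.0 and 17.1 to 1.63 and 1.75 normalised CPM in vehicle cultures, to 0.0908 of its level in proliferation medium (log2 fold change -3.46, SE 0.384, adjusted p = 5.35e-06, edgeR). With 4HBP it fell from 12.7, 16.1 and 5.38 to 1.74, 2.28 and 2.37 (-2.42, SE 0.323, adjusted p = 2.1e-05, edgeR). Hey1, in contrast, rose in vehicle cultures from 64.1, 72.9 and 63.1 to 139.3 and 139.7 normalised CPM (1.06, SE 0.09, adjusted p = 4.78e-07, edgeR). With 4HBP, where Hey1 was already higher in proliferation medium, the rise was 0.41 (SE 0.081, adjusted p = 0.000603, edgeR). These are changes in counts, and divided by the estimated transcript length, which differed between media for Hey1, the ratio of differentiation to proliferation medium was 1.22 with vehicle and 0.787 with 4HBP.

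Hes6 rose by 0.36 in vehicle cultures (SE 0.12, adjusted p = 0.0195, edgeR), from 30.6, 26.2 and 23.4 to 34.5 and 34.2 normalised CPM. This call was lost without vehicle replicate 3 of the proliferation medium and without either vehicle library of the differentiation medium (adjusted p between 0.0709 and 0.0864). With 4HBP Hes6 rose by 1.06 (SE 0.111, adjusted p = 2.44e-06, edgeR), from 18.1, 21.1 and 16.1 to 41.3, 35.6 and 38.0. Hes1 was not called with vehicle (-0.17, 95% confidence interval -0.65 to 0.32) and was lower with 4HBP (-0.57, SE 0.208, adjusted p = 0.0276, edgeR), although its ranges in the 2 media overlapped and the call was lost in 4 of the 6 fits without a library (adjusted p up to 0.128). Within the libraries, the share of Hes5 in the summed TPM of the 4 effectors was 23.4 ± 1.66% with vehicle in proliferation medium (n = 3) and 1.68 ± 0.322% in differentiation medium (n = 2), and that of Hes6 was 20.1 ± 1.79% and 28.5 ± 0.457%. The share of Hes5 and the share of Hes6 each separated all 6 proliferation from all 5 differentiation libraries (exact permutation p = 0.00433, adjusted 0.00577). The share of Hey1 did not (p = 0.593 in the same exact test). All these shares sum every annotated transcript of a gene, for Hey1 also those annotated as retained introns.

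**Figure D4:**
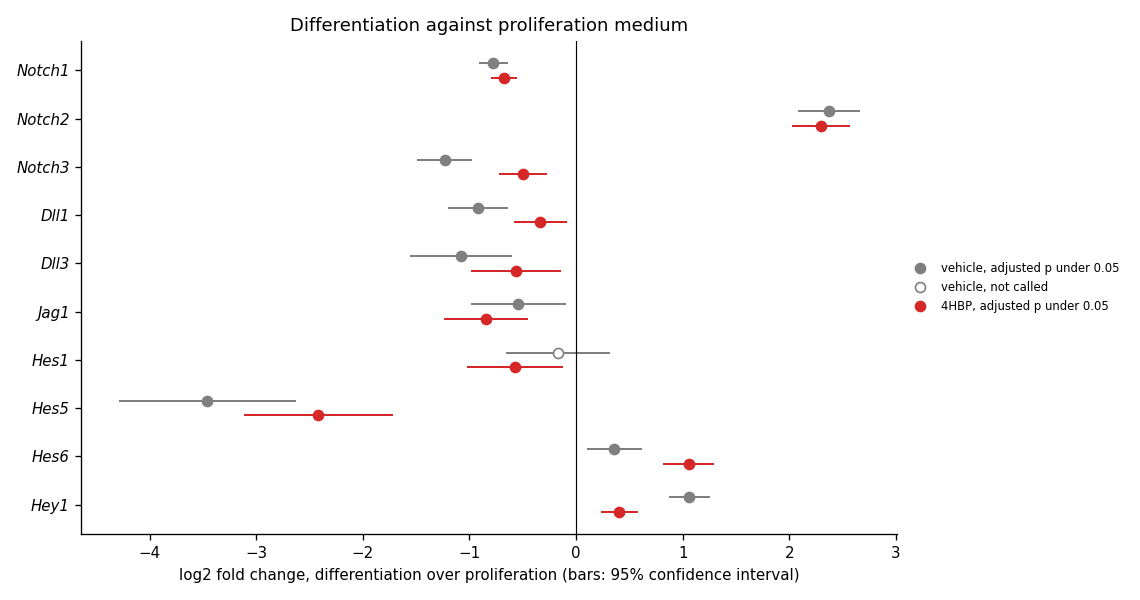
Log2 fold change of differentiation over proliferation medium for the 10 genes with vehicle (grey) and with 4HBP (red), with bars for the 95% confidence interval and filled points for adjusted p under 0.05. Notch2 stands at 2.37 and 2.30 and Hes5 at -3.46 and -2.42, on opposite sides of 0.

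For the rest of the pathway the share of called genes was close to that of all genes (60.5% of the list against 61.4% with vehicle, and 69.8% against 67.2% with 4HBP). In vehicle cultures 11 of 43 tested genes were higher in differentiation medium and 15 lower, and with 4HBP 13 were higher and 17 lower, with medians of 0.00 and -0.04. The largest rises in vehicle cultures were those of Dlk2 (2.33), the nuclear coactivator Maml3 (2.00), the Hes family member Hes3 (1.91), the ligand Jag2 (1.89), Dner (1.28) and Dtx4 (0.84). Dlk2, Hes3 and Jag2 stayed low, at no more than 1.42, 0.969 and 2.67 normalised CPM in the vehicle libraries of the differentiation medium, whereas Dner reached 106 and 118. The largest falls were those of Neurl1b (-2.42), Dlk1 (-1.64), Mfng, a glycosyltransferase of the Fringe family (-0.89), Nrarp (-0.82), the ligand-dependent receptor protease Adam10 (-0.70) and the repressor Hey2 (-0.69). Adam10 went from 210.4, 207 and 224 to 134 and 129 normalised CPM. With 4HBP the 6 largest rises were of the same 6 genes, between 1.00 (Dtx4) and 1.80 (Dner), and the largest falls were of Dlk1 (-2.10), Neurl1b (-1.35), Hey2 (-1.01), Mfng (-0.83), the modulator Dtx2 (-0.71) and the coactivator Maml2 (-0.70), all with adjusted p under 0.05 by edgeR. Of the proteolysis genes, 4 of 9 were higher and 2 lower with vehicle, among the former the γ-secretase parts Psen2 (0.82), Aph1a (0.67), Aph1b (0.30) and Ncstn (0.16).

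Markers moved between media too, and their part in the differences of the Notch genes was not tested. With vehicle, 2 of the 7 stem cell markers were higher in differentiation medium and 5 lower, among them Prom1 (1.58, adjusted p = 2.8e-05) and Nes (-2.57, adjusted p = 5.45e-07, both edgeR). Of the 7 astrocyte markers 4 were higher and 3 lower, with Aqp4 at 0.27 (adjusted p = 0.0409) and Gfap at -0.62 (adjusted p = 0.000241, both edgeR), and their sum was 7840 to 8720 CPM in proliferation and 9360 to 9380 in differentiation medium. Mki67 fell by 3.20 on the log2 scale (adjusted p = 4.34e-07, edgeR). The summed level of the 6 cycling markers was 823 to 973 CPM in proliferation and 153 to 174 in differentiation medium, and all 6 fell. The summed level of the 7 oligodendrocyte lineage markers was 3360 to 4000 CPM and 7530 to 7860, with 4 of 7 higher, and that of the 7 neuronal markers 964 to 1060 and 911 to 944 CPM, with 4 higher and 1 lower. The endothelial sum was 12.8 to 21.4 CPM in proliferation and 3.79 to 4.05 in differentiation medium, and that of mural cells and fibroblasts 8.44 to 13.7 and 30.9 to 33.0 CPM, with Lum at 0 in 8 of 11 libraries. Pdgfrb carried this rise (0.723 to 28.4 CPM on average), whereas Acta2 and Rgs5 of the same list fell (-1.98 with adjusted p = 0.000343 and -1.66 with adjusted p = 0.00297, edgeR). The microglial sum was 1.87 to 3.80 and 1.21 to 1.28 CPM.

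The deposited tables also gave for each gene a transcript length weighted by the abundance of its annotated transcripts, which was compared between media after its values had been seen. Of the 9 genes of the 10 with more than 1 annotated transcript, 2 (Hey1 and Jag1) had lengths that did not overlap between media, against 24.7% of the 9899 genes with several transcripts and at least 50 counts in every library (a minimum that Hes5 did not reach). Hey1 had a mean length of 1362 ± 52.0 bases in the 6 proliferation libraries and 2321 ± 44.3 bases in the 5 differentiation libraries (SD, treatments pooled). Its protein-coding transcript is 2423 bases long in GENCODE vM21, and its 3 other transcripts, all annotated as retained introns, are 705, 828 and 1056 bases long. Jag1 had a mean of 3147 ± 301 and 4920 ± 508 bases, between its protein-coding transcript of 5612 bases and a retained-intron transcript of 1463 bases. Computed from these lengths, the short form made up 49.5 to 68.8% of Jag1 transcripts in the proliferation libraries and 0.0 to 29.8% in the differentiation libraries. Within differentiation medium it was 0.0 and 8.19% with vehicle and 21.2, 29.8 and 24.3% with 4HBP. This difference between treatments was not tested. The lowest Jag1 count was 146 and the lowest Hey1 count 1274, so the estimate is better founded for Hey1. The change between media stood at the 99.5 percentile of the 9899 genes for Hey1 and at the 98.9 percentile for Jag1. A longer transcript gives more fragments, so a change of length enters the fold changes in counts between media. Divided by this length, the normalised CPM of Hey1 in differentiation over proliferation medium was 1.22 times with vehicle and 0.787 times with 4HBP, against 2.09 and 1.33 times undivided, so that with 4HBP the direction turned. For Jag1 the same ratios were 0.423 and 0.358, against 0.687 and 0.556 undivided.

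**Figure D5:**
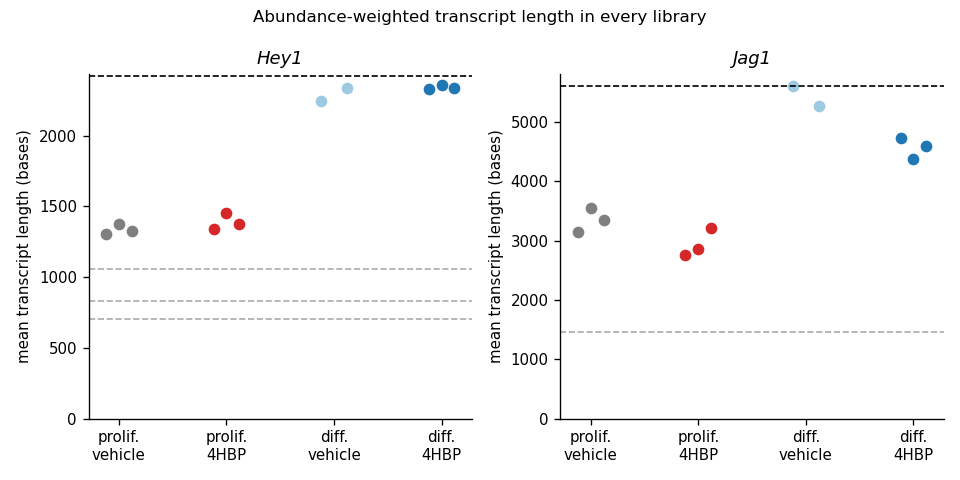
Abundance-weighted transcript length of Hey1 (left) and Jag1 (right) in bases, with 1 point for each library of the 4 groups and dashed lines at the lengths of the annotated protein-coding (black) and retained-intron (grey) transcripts. Hey1 lies at 1306 to 1452 bases in proliferation and at 2244 to 2357 bases in differentiation medium.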

How the data were processed

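RNA of 11 NSC samples was sequenced by the authors from stranded, poly(A)-selected libraries, trimmed with cutadapt, and quantified with RSEM 1.3.0 and Bowtie2 2.2.9 on mm10 (GRCm38) with GENCODE vM17. The deposited tables hold expected counts per gene (RSEM's unnormalized estimates), TPM (normalized by RSEM for effective length and depth) and FPKM values, which the authors computed with RSEM and which were not analysed. Libraries were grouped by their labels. The 10 genes and all lists were chosen with earlier results of these data known. Symbols and positions came from GENCODE vM21 of the same build, by gene identifier.

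Expected counts were rounded, filtered (filterByExpr by group), normalised by TMM and tested with edgeR 4.0.16 (R 4.3.3), within each medium for 4HBP and over all 11 libraries for the media and the difference of effects. Confidence intervals use the quasi-likelihood degrees of freedom. The paper names limma on log2(CPM + 1), which was run as an alternative (limma 3.58.1, pseudocount 1), as were DESeq2 1.42.0, other size factors, no filter, a joint fit, the replicate number as a block and fits without each library in turn. No duplicated library was found. The tests were first tried on simulated counts. Intervals and floors cover counting error or the spread between libraries only. Beyond the 10 genes, pathway genes were named when called without overlap (up to 6 in each direction and comparison), and markers were named from a fixed list, of which 1 gene and the sum that holds it are not reported here. Scripts ran in Python 3.11.15 with scipy for the exact tests.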

Additional observations from a re-analysis of the deposited data

Results flagged for a closer look

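The effect of 4HBP differed between the media for 6 genes, by edgeR's test of the difference (log2 fold change in differentiation minus that in proliferation medium). These were 3 of the 10 members and 3 of the 43 pathway genes tested (6.98%), against 4.49% of all genes tested. The difference was 0.73 for Notch3 (-0.69 in proliferation and 0.04 in differentiation medium), 0.70 for Hes6 (-0.54 and 0.15) and -0.66 for Hey1 (0.65 and -0.02). Among the 11 fits that each left out a library, the difference was called in 7 for Notch3, in 4 for Hes6 and in 9 for Hey1, with the same direction in all of them.

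In the rest of the pathway, the difference was 0.51 for Dner (SE 0.123, adjusted p = 0.0354, edgeR), 0.36 for the receptor protease Adam17 (SE 0.092, adjusted p = 0.0442, edgeR) and -0.50 for Mib2 (SE 0.109, adjusted p = 0.0243, edgeR). Adam17 was not called in either medium alone (-0.19 with adjusted p = 0.122 in proliferation and 0.17 with adjusted p = 0.119 in differentiation medium). Groups of 2 or 3 libraries were not tested for single outlying values.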

How the results depend on the processing

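With limma on log2(CPM + 1) and adjusted p, 0 members and 0 pathway genes were called for 4HBP in proliferation medium, 0 pathway genes in differentiation medium, and 0 members and 0 pathway genes for the difference between media. Of all genes, limma called 0.0755%, 0% and 0.967% in these comparisons. With the threshold of the study's methods (unadjusted p under 0.05 and absolute log2 fold change over 0.58), limma called 2 members (Notch3 and Hey1), 1 pathway gene in proliferation and 0 in differentiation medium (2.73% and 0.257% of all genes). With all 11 libraries in 1 fit, pathway calls numbered 7 in proliferation and 0 in differentiation medium (16.8% and 0% of all genes), and DESeq2 called 2 pathway genes in differentiation medium (1.78% of all genes). Without the filter the difference was called for 5 members and 5 pathway genes (5.96% of all genes), and with library totals for 1 pathway gene (4.6% of all genes). When each library was left out, calls in proliferation medium ranged from 0 to 4 members and from 0 to 3 pathway genes, those in differentiation medium from 0 to 3 pathway genes, and those of the difference from 0 to 4 members and from 0 to 3 pathway genes. In such fits, between 0.729% and 9.75% of all genes were called in proliferation medium. With both vehicle libraries of the differentiation medium kept, the share was 1.51 to 1.88% in that medium and 1.93 to 6.93% for the difference. A lone vehicle library left in differentiation medium is assumed to vary like the others.

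Values near 0 changed sign. In proliferation medium, Notch1 was 0.008 with library totals and 0.007 with limma (main value -0.03), and without single libraries it ranged from -0.065 to 0.019, Notch2 from -0.16 to 0.14 and Hes1 from -0.336 to 0.081. In differentiation medium Notch3 ranged from -0.042 to 0.124 and Dll3 from -0.03 to 0.068, and the difference for Notch2 ranged from -0.19 to 0.11. Library totals moved the median of all genes between media with vehicle to 0.11 from 0.03. Divided by transcript length, an alternative chosen after seeing the data, the ratio of differentiation over proliferation medium for Hey1 with 4HBP turned from 1.33 to 0.787. The cause of these changes was not tested.

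Same-numbered 4HBP and vehicle libraries did not deviate together (correlations over genes of -0.0296, -0.0959 and -0.127 in proliferation and 0.0831 and -0.00475 in differentiation medium), so the numbers were not used as pairs. With a replicate block in edgeR, 2 members and 3.7% of all genes were called in proliferation medium (Hes6 at adjusted p = 0.0604), and Dll3 in differentiation medium was at -0.03.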
